A study of Homo sapiens with 21 samples.

Results

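The adrenergic, prostaglandin and prokineticin receptors examined here are the genes ADRB1, PTGER2, PTGER3, PTGER4, PROKR1 and PROKR2, 6 of the 62699 genes counted, and were taken by their symbols. ADRB1, PTGER2 and PROKR1 were chosen by their measured response in PDX1-null cells, namely their fold changes in comparisons that hold PDX1-/- libraries, so each value that compares a PDX1-/- library is a description without a test for these 3 genes. The filter on low counts kept 5 receptors (15 to 6505 counts per library) and left out PROKR2 (0 to 10 counts), which was not tested.

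RNA was sequenced from cells on the path to islets, grown from H1, a line of human embryonic stem cells. The genotypes were WT and cells labelled ISL1-/-, PAX6-/- or PDX1-/-, each lacking, per its label, a transcription factor of pancreatic endocrine cells. Every culture was dissociated on day 11, exposed to a lentivirus that carried either ISL1 joined to the blue fluorescent protein BFP or BFP alone, sorted for BFP and harvested on day 18, so the WT cells with BFP carry a virus too. Groups held 3 libraries, except both WT groups and the ISL1-labelled PDX1-/- group, which held 2 each. The sources used here do not say whether a genotype is 1 clone, and the sort keeps all transduced cells, whatever their type. Libraries are named by the number in their description. Levels are in CPM, counts scaled to a common library size of 1 M by the TMM method of edgeR.

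Totals ran from 36.8 to 60.2 M counts. PAX6-/- with ISL1 replicate 3 and PDX1-/- with ISL1 replicate 4 stood apart in their share of mitochondrial counts, 3.16% and 3.84%, against 1.28% to 1.93% in the other 19 libraries. ISL1 itself had a mean of 413 CPM in WT with BFP and 349 in WT with ISL1, against 76.9 and 84.5 in ISL1-/-. Counts of ISL1 did not separate the vectors, and those of PAX6 overlapped between PAX6-/- and WT with either vector. PDX1 RNA was not lower in the libraries labelled PDX1-/- with BFP, at 103 to 116 CPM against 80.0 to 102 in WT. With the ISL1 vector these groups overlapped. A count of RNA does not show whether an edited gene still makes its protein, so these values do not test the labels. Vector and genotype are therefore as labelled throughout, and each direction drawn from PDX1-/- is that of the libraries so labelled. Markers of general endocrine cells were present in every group (5 genes, 11598 to 53822 summed CPM), those of beta cells (7 genes) ranged from 376 to 25724, those of alpha cells (6 genes) from 626 to 120446, and pluripotency markers (4 genes) reached at most 20.5.

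All 6 genes encode receptors that couple to G proteins. ADRB1 encodes the beta-1 adrenergic receptor, which binds noradrenaline and adrenaline and raises cAMP through Gs. Prostaglandin E2 acts on the E prostanoid (EP) receptors: EP2 (PTGER2) and EP4 (PTGER4) raise cAMP through Gs, while EP3 (PTGER3) mainly lowers it through Gi and is known as a brake on insulin secretion in beta cells. PROKR1 and PROKR2 bind the prokineticins, small secreted peptides that act on gut muscle, neurons and endocrine cells, and signal mainly through Gq. In beta cells cAMP strengthens the release of insulin that glucose sets off.

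The start regions of the 3 genes listed for their response, and of PTGER4 as a prostaglandin receptor that was not, are printed from RefSeq on GRCh38.p14, each from 250 bases before to 50 bases after the annotated start, 5′ to 3′ along the gene. Capitals mark TGACG, the core of the cAMP response element, searched on both strands together with TAAT, the core of many homeodomain sites. Of the 6 receptors, 5 matched an entry in that set.
PROKR1, plus strand, chr2:68643329-68643628: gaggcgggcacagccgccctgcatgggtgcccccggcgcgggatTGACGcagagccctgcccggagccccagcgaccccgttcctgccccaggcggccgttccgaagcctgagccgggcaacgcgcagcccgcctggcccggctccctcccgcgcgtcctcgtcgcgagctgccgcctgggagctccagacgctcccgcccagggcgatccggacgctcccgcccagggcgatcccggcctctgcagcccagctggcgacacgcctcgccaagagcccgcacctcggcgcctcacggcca
ADRB1, plus strand, chr10:114043616-114043915: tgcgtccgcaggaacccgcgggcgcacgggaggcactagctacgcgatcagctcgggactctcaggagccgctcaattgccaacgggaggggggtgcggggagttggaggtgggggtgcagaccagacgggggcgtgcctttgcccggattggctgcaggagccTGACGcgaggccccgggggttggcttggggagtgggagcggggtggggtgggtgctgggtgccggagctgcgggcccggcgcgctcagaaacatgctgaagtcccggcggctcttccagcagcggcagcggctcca
PTGER2, plus strand, chr14:52314062-52314361: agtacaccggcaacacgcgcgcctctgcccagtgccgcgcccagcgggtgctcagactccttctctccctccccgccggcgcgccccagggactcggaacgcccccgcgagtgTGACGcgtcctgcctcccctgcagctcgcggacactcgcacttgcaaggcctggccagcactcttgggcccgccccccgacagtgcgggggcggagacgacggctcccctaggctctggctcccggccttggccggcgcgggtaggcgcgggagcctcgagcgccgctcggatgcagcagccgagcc
PTGER4, plus strand, chr5:40679665-40679964: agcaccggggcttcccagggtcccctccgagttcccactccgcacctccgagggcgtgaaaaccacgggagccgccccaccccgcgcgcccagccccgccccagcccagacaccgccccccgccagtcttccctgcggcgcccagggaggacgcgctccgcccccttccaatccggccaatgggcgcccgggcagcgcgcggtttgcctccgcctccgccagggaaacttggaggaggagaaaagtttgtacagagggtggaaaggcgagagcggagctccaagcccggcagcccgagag
PROKR1, ADRB1 and PTGER2 hold 1 TGACG each, and PTGER4 and PROKR2 hold 0; 24.6% of 35116 such windows of human genes hold at least 1. TAAT has 0 matches in all 5 windows, against a share of 50.2% of windows with at least 1. CpG pairs number 39 in PROKR1, 37 in PTGER2, 30 in PTGER4, 28 in ADRB1 and 28 in PROKR2, where the median window has 14. The shares for TGACG and TAAT are over all windows, not over windows as rich in CpG, and TGACG itself holds a CpG. They are therefore not the shares to be awaited in windows like these. A match or its absence in this window is a description of these letters only.

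**Figure D1:**
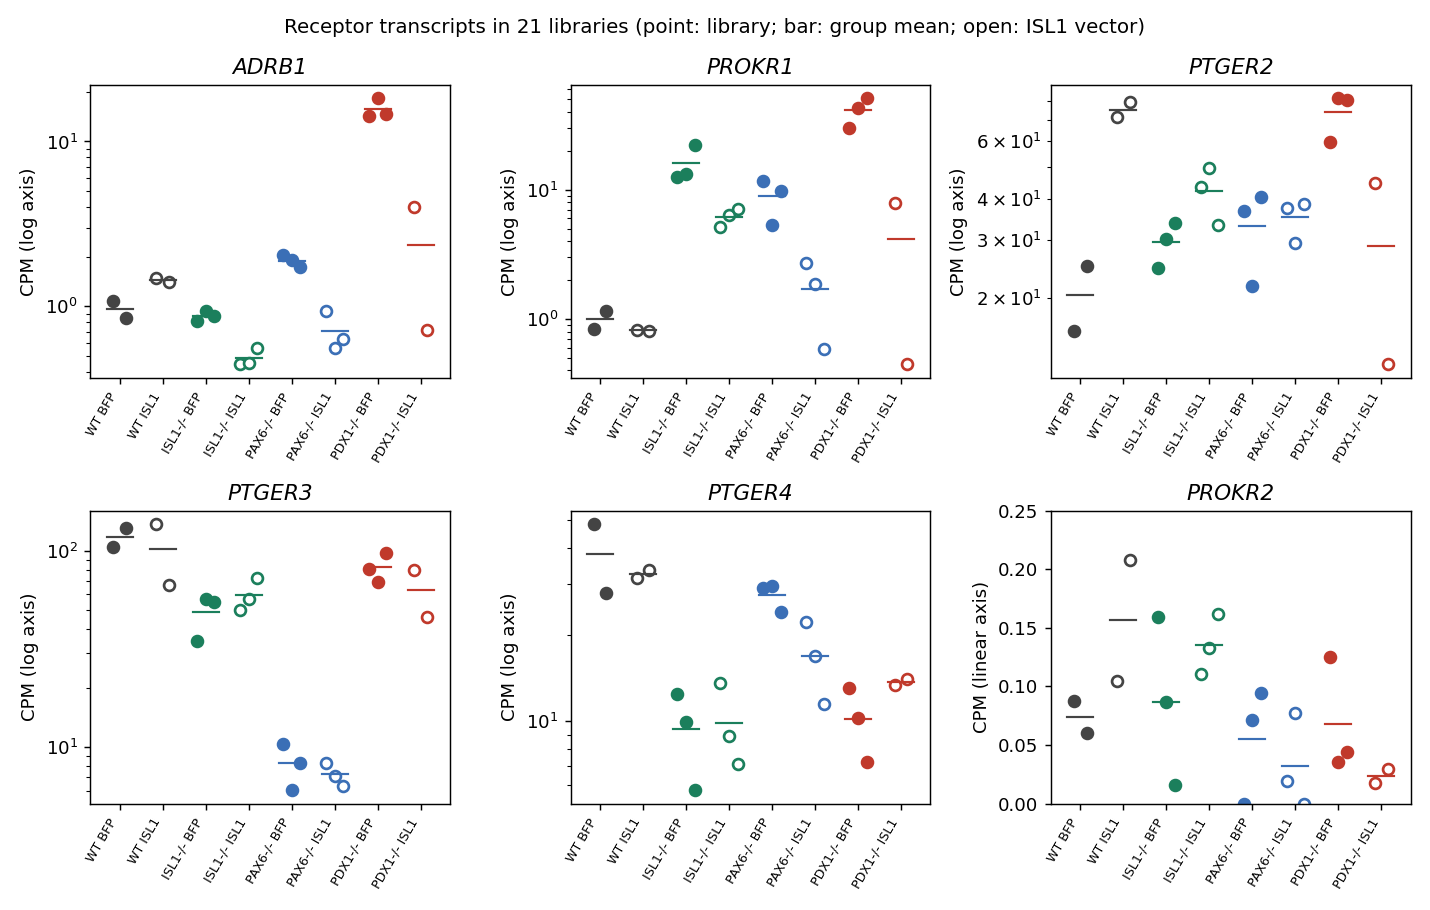
CPM of each receptor in each of the 21 libraries, by genotype and vector (filled, BFP; open, ISL1), with a bar at the group mean; the axis is logarithmic except for PROKR2. ADRB1 and PROKR1 are highest in PDX1-/- with BFP, where all 3 libraries lie above every other library, and PTGER3 is lowest in the 6 PAX6-/- libraries.

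PROKR1 is a gene on the plus strand (ENSG00000169618.7, chromosome 2, 68643579 to 68658251). It was near 1 CPM in WT cells and higher in every knockout with BFP, 16.2-fold in ISL1-/-, 8.99-fold in PAX6-/- and 41.7-fold in PDX1-/-. PROKR1 had 0.835 and 1.15 CPM in WT with BFP, and 12.6, 13.3 and 22 CPM in ISL1-/- with BFP. In PAX6-/- with BFP the libraries had 11.6, 5.30 and 9.78 CPM, and in PDX1-/- with BFP 30.1, 42.5 and 51.0 CPM. All 9 knockout libraries lay above both WT libraries, and the lowest PDX1-/- library lay above the highest of ISL1-/- and PAX6-/-. The log2 fold change over WT was 4.01 (SE 0.84, adjusted p 0.00846 in edgeR) in ISL1-/- and 3.17 (SE 0.81, adjusted p 0.0291) in PAX6-/-. In PDX1-/- it was 5.38 (SE 0.90), a description. ISL1-/- and PAX6-/- did not differ past the threshold (log2 difference 0.85, 95% interval -0.36 to 2.05, adjusted p 0.801). Both calls over WT rested on single libraries: the call in ISL1-/- was lost without either WT library (adjusted p up to 0.132), and the call in PAX6-/- without either WT library or PAX6-/- with BFP replicate 1 or 3 (up to 0.263). The 3 comparisons share the 2 WT libraries. These may also have entered the choice of PROKR1 by its response in PDX1-null cells, so the 2 adjusted p are not independent of that choice.

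PROKR1 was lower in the ISL1-labelled than in the BFP-labelled libraries of each genotype, with no call in the edgeR model over all libraries. It had 0.819 and 0.813 CPM in WT with ISL1, 5.12, 6.37 and 7.06 in ISL1-/-, and 2.7, 1.86 and 0.587 in PAX6-/-. In PDX1-/- with ISL1, replicate 2 had 7.92 CPM and replicate 4 had 0.445. The ISL1-labelled and BFP-labelled libraries did not overlap in any genotype, although in WT the nearest libraries had 0.819 and 0.835 CPM. With so few libraries per group this is a description, and how many of all genes lack overlap was not counted. The log2 fold change was -0.27 (SE 0.84, adjusted p 1 in edgeR) in WT, -1.37 (SE 0.62, adjusted p 0.608) in ISL1-/- and -2.37 (SE 0.65, adjusted p 0.16) in PAX6-/-. In PDX1-/- it was -3.28 (SE 0.79), a description. Relative to the mean of PDX1-/- with BFP, replicate 2 was lower by a log2 CPM difference of -2.34 and replicate 4 of -6.38. In PAX6-/- PROKR1 was called by the replicate block by description number (-2.32, adjusted p 0.0127 in edgeR), DESeq2 (0.0107), edgeR without a filter (0.0168) and limma voom (0.00163). Without PAX6-/- with ISL1 replicate 3, the value in PAX6-/- was -1.97. Among ISL1-labelled libraries, PROKR1 in ISL1-/- over WT was 2.92 (SE 0.80, adjusted p 0.051) and in PAX6-/- 1.07 (SE 0.76, adjusted p 0.504). The first was called by DESeq2 (0.00144), without a filter (0.00413), in the edgeR fit on only these groups (9.96e-05), by limma voom (0.000191) and with the replicate block by description number (0.00347).

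PROKR1 shares 1628 exon bases, 38.0% of its own, with APLF, a DNA repair gene on the same strand, so the counting could divide their reads. APLF had 187 to 791 counts per library. Its group means ran from 6.94 CPM ± 1.98 (SD, n = 2) in PDX1-/- with ISL1 to 13.4 ± 2.29 (SD, n = 3) in PDX1-/- with BFP, with 7.11 ± 0.114 (SD, n = 2) in BFP-labelled WT cells. Its log2 fold change over WT was 0.29 (adjusted p 0.612 in edgeR) in ISL1-/-, 0.26 (adjusted p 0.666) in PAX6-/- and 0.91 (adjusted p 0.0374) in PDX1-/-. APLF also fell with ISL1 over BFP in PDX1-/- (-0.94, adjusted p 0.0289), where PROKR1 was lower too. These are smaller in size than the values for PROKR1, and how the shared reads were assigned was not tested. PROKR2 (ENSG00000101292.8, chromosome 20, 5299218 to 5316954, minus strand), the other prokineticin receptor, had 86 counts in all 21 libraries together. Its group means ran from 0.0236 CPM in PDX1-/- with ISL1 to 0.157 CPM in WT with ISL1, and neighbouring groups overlapped throughout the order. PAX6-/- with BFP replicate 1 and PAX6-/- with ISL1 replicate 3 had 0 counts, which allows up to 3 counts. The ligand genes PROK1 and PROK2 reached at most 0.151 and 0.0776 CPM and did not pass the filter. MRAP2, an accessory protein that restrains prokineticin receptors, fell in PAX6-/- with BFP, from 3.19 CPM ± 0.533 (SD, n = 2) to 1.01 ± 0.197 (SD, n = 3), a log2 difference of -1.65 (SE 0.33, adjusted p 0.00779 in edgeR, lost without WT with BFP replicate 3 at 0.0992).

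ADRB1 (ENSG00000043591.6, chromosome 10, 114043866 to 114046904, plus strand) was low in every group but 1. In PDX1-/- with BFP its libraries had 14.2, 18.3 and 14.7 CPM. In WT with BFP it had 1.08 and 0.846 CPM, in ISL1-/- with BFP 0.814, 0.936 and 0.871, and in PAX6-/- with BFP 2.03, 1.91 and 1.72. The lowest PDX1-/- library with BFP was above every library of any other group, of which PDX1-/- with ISL1 replicate 2 was the nearest at 3.99 CPM. The log2 fold change of PDX1-/- over WT, both with BFP, was 4.02 (SE 0.51), a 16.3-fold difference given as a description. ADRB1 did not pass in ISL1-/- (-0.14, SE 0.45, adjusted p 0.923 in edgeR) or in PAX6-/- (0.97, SE 0.45, adjusted p 0.256), although all 3 PAX6-/- libraries lay above both WT libraries. In PAX6-/- it did pass under limma voom with sample quality weights, in the fit on only these groups and with the replicate block by description number. Leaving out either ISL1-labelled PDX1-/- library, which is not in this comparison, also brought it past the threshold, with an adjusted p down to 0.0197.

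With the ISL1 vector, ADRB1 had 1.49 and 1.40 CPM in WT, 0.442, 0.449 and 0.558 in ISL1-/-, 0.931, 0.557 and 0.629 in PAX6-/-, and 3.99 and 0.711 in PDX1-/-. It lay above the BFP libraries in WT and below them in each knockout, with no overlap in any of the 4 genotypes. That is a description, since groups were small and the share of all genes without overlap was not counted. For ISL1 over BFP the log2 fold changes were 0.58 (SE 0.49, adjusted p 1 in edgeR) in WT, -0.85 (SE 0.41, adjusted p 0.67) in ISL1-/- and -1.42 (SE 0.40, adjusted p 0.181) in PAX6-/-. In PDX1-/- it was -2.72 (SE 0.47), a description that rests unequally on its libraries: -1.96 for replicate 2 and -4.39 for replicate 4 against the BFP mean in log2 CPM. For PAX6-/-, DESeq2 (adjusted p 0.0282), limma voom (0.00299) and the replicate block by description number in edgeR (0.00579) called ADRB1. For ISL1-/-, limma voom called it (0.0344). These alternatives called more of all genes as well. The difference from the effect in WT was -1.43 (SE 0.64, adjusted p 1) in ISL1-/-, -2.00 (SE 0.63, adjusted p 0.894) in PAX6-/- and, as a description, -3.30 (SE 0.67) in PDX1-/-. Among ISL1-labelled libraries, ADRB1 in ISL1-/- against WT was -1.57 (SE 0.44, adjusted p 0.0576 in edgeR). The 5 alternatives that called PROKR1 in that comparison called ADRB1 too (adjusted p 0.000163 to 0.0391).

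**Figure D2:**
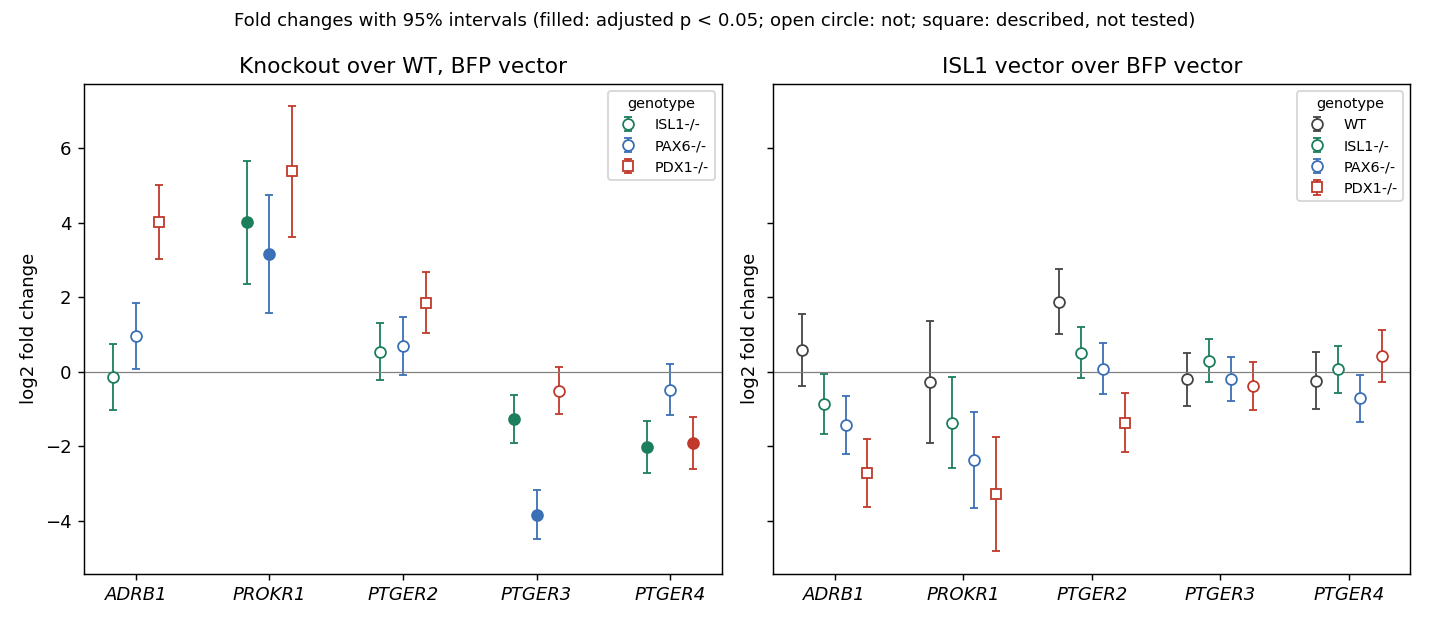
Log2 fold changes with 95% intervals of the 5 receptors that passed the filter, on the left for each knockout over WT with BFP and on the right for ISL1 over BFP in each genotype; filled points passed an adjusted p of 0.05, open circles did not, and squares were not tested. PTGER3 in PAX6-/- (-3.83) lies lowest on the left, and no point on the right is filled. The intervals use a normal approximation and can be too narrow.

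PTGER2 (ENSG00000125384.7, chromosome 14, 52314305 to 52328598, plus strand), the gene of the EP2 receptor, had 2 high groups, WT with ISL1 and PDX1-/- with BFP. It had 71.2 and 79.0 CPM in WT with ISL1, against 15.8 and 25 in WT with BFP. In PDX1-/- with BFP it had 59.7, 81.3 and 80.1 CPM, and in PDX1-/- with ISL1 44.9 in replicate 2 and 12.5 in replicate 4. The groups did not overlap in either genotype, and the sign was opposite. How many of all genes lack overlap was not counted. In WT, ISL1 over BFP gave 1.88 on the log2 scale (SE 0.44, adjusted p 0.283 in edgeR), a 3.69-fold difference that missed the threshold in a comparison of 2 against 2 libraries. DESeq2 (adjusted p 0.0147), the replicate block by description number in edgeR (0.019), limma voom with sample quality weights (0.000233) and the edgeR fit on only the 4 WT libraries (0.00732) called it. So did the full model without either ISL1-labelled PDX1-/- library (down to 0.0131). In PDX1-/- the value was -1.36 (SE 0.41), a description, and against the BFP mean it was -0.70 in replicate 2 and -2.54 in replicate 4.

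In the other genotypes PTGER2 lay between. It had 24.7, 30.3 and 33.9 CPM in ISL1-/- with BFP and 43.7, 49.9 and 33.3 with ISL1. In PAX6-/- it had 36.9, 21.7 and 40.6 CPM with BFP and 37.7, 29.3 and 38.7 with ISL1. None of the vector effects in these knockouts passed (0.51, adjusted p 0.91 in ISL1-/-, and 0.09, adjusted p 0.926 in PAX6-/-, edgeR). Neither did the knockouts with BFP over WT with BFP (0.54, adjusted p 0.511, and 0.70, adjusted p 0.374). The difference of PDX1-/- over WT with BFP was 1.86 (SE 0.42), a description. The vector effect relative to WT was -1.37 (SE 0.55, adjusted p 1) in ISL1-/- and -1.79 (SE 0.56, adjusted p 0.894) in PAX6-/-, and -3.24 (SE 0.60) in PDX1-/- as a description. Limma voom called the vector effect in ISL1-/- (0.65, adjusted p 0.0422) and its difference from WT in PAX6-/- (-1.92, 0.0172). It also called PAX6-/- over WT with BFP (0.81, 0.0207). Among ISL1-labelled libraries, PTGER2 over WT was -0.83 (adjusted p 0.282 in edgeR) in ISL1-/- and -1.09 (adjusted p 0.137) in PAX6-/-. Limma voom and the replicate block by description number called both, and the fit on only these groups the first. Mesenchyme markers (8 genes) summed to 1627 and 1873 CPM in WT with ISL1 and to 1230.3 and 216 in WT replicates 1 and 3 with BFP. Endothelial markers (5 genes) summed to 27.9 to 37.3 CPM and 15.6 to 26.8 CPM. No gene of either list was at 0 in all libraries of these groups, and their part in the PTGER2 difference was not tested.

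PTGER3 (ENSG00000050628.21, chromosome 1, 70852353 to 71047816, minus strand), the gene of the EP3 receptor, fell in PAX6-/- cells with either vector, by about the same amount. It had 104 and 130.3 CPM in WT with BFP and 10.4, 6.02 and 8.32 in PAX6-/- with BFP. With ISL1 it had 137 and 67.3 CPM in WT and 8.30, 7.15 and 6.33 in PAX6-/-. The highest of the 6 PAX6-/- libraries was 10.4 CPM, and the lowest of the other 15 libraries was 34.7. The log2 fold change over WT was -3.83 (SE 0.34, adjusted p 6.86e-06 in edgeR) with BFP, 14.2-fold lower, and -3.81 (SE 0.34, adjusted p 7.52e-06) with ISL1. Both calls held in each of the 21 fits that left out a library, with adjusted p of at most 0.000185 and 0.000156. PTGER3 was also lower in PAX6-/- than in PDX1-/- (log2 difference of PDX1-/- over PAX6-/- 3.32, SE 0.32, adjusted p 2.23e-05) and than in ISL1-/- (ISL1-/- over PAX6-/- 2.56, SE 0.31, adjusted p 0.000124), all with BFP. These comparisons share the 3 PAX6-/- libraries.

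In ISL1-/- with BFP, PTGER3 had 34.7, 56.5 and 54.7 CPM and fell by 1.27 on the log2 scale against WT (SE 0.32, adjusted p 0.0275 in edgeR). Leaving out any of the 5 libraries compared removed the call, with an adjusted p up to 0.232. In PDX1-/- with BFP it had 80.5, 69.6 and 97.1 CPM, a log2 fold change of -0.51 (95% interval -1.14 to 0.13, adjusted p 0.403). No PDX1-/- library reached a WT library, and the edgeR fit on only these groups put the adjusted p at 0.049. With ISL1 it had 49.7, 56.8 and 73.1 CPM in ISL1-/- and 80.1 and 46.2 in PDX1-/-. Its vector effect ran from -0.38 in PDX1-/- (SE 0.33, adjusted p 0.451) to 0.30 in ISL1-/- (SE 0.29, adjusted p 1), and the ISL1-labelled and BFP-labelled libraries overlapped in each genotype. Epsilon cell markers (2 genes, GHRL among them) summed to 3071 to 4623 CPM in PAX6-/- with BFP and 188 to 207 in WT with BFP. Alpha cell markers were at 1096 to 1843 CPM in PAX6-/- with BFP, 626 to 678 in ISL1-/- with BFP and 40435 to 55035 in WT with BFP. In bulk RNA, fewer cells of a type and less RNA per cell cannot be told apart, and the part of these shifts in the fall of PTGER3 was not tested.

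PTGER4 (ENSG00000171522.6, chromosome 5, 40679915 to 40693735, plus strand), the gene of the EP4 receptor, fell in ISL1-/- and in PDX1-/- with BFP. It had 48.4 and 28.0 CPM in WT with BFP, 12.4, 9.96 and 5.77 in ISL1-/- with BFP, and 13.1, 10.3 and 7.23 in PDX1-/- with BFP. In PAX6-/- with BFP it had 29.1, 29.4 and 24 CPM, which overlaps WT. The log2 fold change over WT was -2.02 (SE 0.36, adjusted p 0.00238 in edgeR) in ISL1-/- and -1.91 (SE 0.35, adjusted p 0.00278) in PDX1-/-. It was -0.48 (95% interval -1.17 to 0.22, adjusted p 0.53) in PAX6-/-. Both calls were lost without WT with BFP replicate 1 (adjusted p 0.0679 and 0.0738), the higher of the WT libraries. That library had 1230.3 CPM of mesenchyme markers against 216 in the other, and their part in PTGER4 was not tested. Against PAX6-/- with BFP, PTGER4 was lower in ISL1-/- (-1.55, SE 0.33, adjusted p 0.0131) and in PDX1-/- (-1.43, SE 0.33, adjusted p 0.021), comparisons that use no WT library. The first was lost without ISL1-/- with BFP replicate 2 or 3 or PAX6-/- with BFP replicate 1 (adjusted p up to 0.0837). The second was lost without replicate 1 or 2 of PAX6-/- with BFP or replicate 2 or 3 of PDX1-/- with BFP (up to 0.13). Between ISL1-/- and PDX1-/- the difference was 0.12 (95% interval -0.51 to 0.75, adjusted p 0.909).

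With ISL1, PTGER4 had 31.4 and 33.4 CPM in WT, 13.6, 8.93 and 7.11 in ISL1-/-, 22.2, 16.8 and 11.5 in PAX6-/-, and 13.4 and 14.0 in PDX1-/-. It was lower in ISL1-/- than in WT here too (-1.71, SE 0.35, adjusted p 0.0111 in edgeR), a call lost without either WT library with ISL1 or without replicate 2 or 3 of ISL1-/- with ISL1 (adjusted p up to 0.0977). PDX1-/- did not pass (-1.24, SE 0.40, adjusted p 0.215), nor did PAX6-/- (-0.95, SE 0.35, adjusted p 0.164). Its vector effect was 0.43 in PDX1-/-, 0.07 in ISL1-/-, -0.24 in WT and -0.71 in PAX6-/-, with adjusted p of 0.432, 1, 1 and 0.466 in edgeR. In PAX6-/- the 3 ISL1-labelled libraries lay below the 3 BFP-labelled ones, a description, since the share of all genes without overlap was not counted. A small part of PTGER4, 0.5% of its 50-base words, also occurs in other annotated sequences, namely AL845472.1 and the pseudogenes PTGER4P2 and PTGER4P3.

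Counted over the receptors, the tests read as follows. Among the knockouts with BFP over WT with BFP, 6 of 12 receptor tests passed in edgeR at an adjusted p of 0.05. Of these, 2 were higher (PROKR1 in ISL1-/- and PAX6-/-) and 4 lower. The 2 higher calls use WT libraries that may also have entered the choice of PROKR1. The share of all 25884 genes that passed was 9.68% in PDX1-/-, 5.59% in ISL1-/- and 5.51% in PAX6-/-. The genes that were higher made up 4.03%, 1.67% and 2.25% in the same order, and those that were lower 5.65%, 3.92% and 3.26%. Only 1 test was left without WT with BFP replicate 1, and 3 without replicate 3, so the count depends on these 2 shared libraries. Between knockouts with BFP, 4 of 9 passed, where 5.07% (PDX1-/- over ISL1-/-), 3.04% (PDX1-/- over PAX6-/-) and 2.46% (ISL1-/- over PAX6-/-) of all genes did. That count was 2 without PAX6-/- with BFP replicate 1. Among ISL1-labelled libraries 2 of 12 passed against WT, PTGER4 in ISL1-/- and PTGER3 in PAX6-/-, with 3.72%, 3.56% and 0.634% of all genes in ISL1-/-, PAX6-/- and PDX1-/-. That count was 1 without either WT library or without replicate 2 or 3 of ISL1-/-, and 4, 7 and 6 without PAX6-/- replicate 3 and PDX1-/- replicates 2 and 4, all with ISL1.

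For ISL1 over BFP, 0 of 17 receptor tests passed in edgeR, with 5 at an unadjusted p under 0.05, 3 called by DESeq2 and 6 by limma voom with sample quality weights. The count of all genes rose as well, from 92 to 460 and 2579 in PAX6-/-, from 99 to 379 and 2122 in ISL1-/- and from 7 to 65 and 521 in WT under DESeq2 and limma voom, and in PDX1-/- it went from 3240 to 4800 and 22. Without either ISL1-labelled PDX1-/- library 3 passed. The share of all genes was 12.5% in PDX1-/- (8.19% higher and 4.33% lower), 0.382% in ISL1-/-, 0.355% in PAX6-/- and 0.0270% in WT. For the vector effect in a knockout minus that in WT, 0 of 12 passed in edgeR, with 4 at an unadjusted p under 0.05, 0 called by DESeq2 and 2 by limma voom, which called 150, 136 and 44 of all genes in ISL1-/-, PAX6-/- and PDX1-/-. The share of all genes was 0.00386% in ISL1-/-, 0% in PAX6-/- and 1.19% in PDX1-/-. For ISL1 over BFP in PAX6-/-, a replicate block by description number called ADRB1 (-1.43, adjusted p 0.00579 in edgeR), PTGER4 (-0.77, adjusted p 0.0282) and PROKR1 (-2.32, adjusted p 0.0127). The numbers are not shown to pair these libraries. With the block by title number the adjusted p were 0.17, 0.144 and 0.2. Both numberings match these 6 PAX6-/- libraries alike and differ only for libraries of other groups in the same model. The median log2 fold change of all genes was 0.11 in the PAX6-/- vector comparison, 0.13 in that of PDX1-/- and in PAX6-/- over WT with ISL1, and at most 0.10 in size in the others.

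Per kilobase of exon, PTGER2 had the highest mean of the 4 EP receptor genes in every group but WT with BFP. Its place above PTGER3 rests on the exon length used: in CPM, which is not scaled by length, PTGER3 was above PTGER2 in the 6 groups outside PAX6-/-. Per kilobase in WT with BFP, PTGER3 had 11.4 CPM per kb, PTGER4 10.8 and PTGER2 8.27, while PTGER1, the gene of the EP1 receptor, had 0.489. PTGER2 made up 26.7% ± 8.07 (SD, n = 2) of the sum of the 4 genes in BFP-labelled WT cells and 60.8% ± 6.85 (SD, n = 2) in WT with ISL1. It made up 60.7% ± 3.68 in ISL1-/-, 58.8% ± 8.82 in PAX6-/- and 72.3% ± 4.71 in PDX1-/- with BFP (SD, n = 3 each). PTGER3 made up 36.8% ± 5.16 (SD, n = 2) in BFP-labelled WT cells and 3.54% ± 0.490 (SD, n = 3) in PAX6-/- with BFP. The sum was 30.9 CPM per kb ± 0.530 (SD, n = 2) in BFP-labelled WT cells, 19.7 ± 2.13 in ISL1-/-, 22.5 ± 3.90 in PAX6-/- and 41.2 ± 4.49 in PDX1-/- with BFP (SD, n = 3 each). These shares follow from the levels already tested gene by gene and have no test of their own. The length of PTGER3, 10287 bases, sums many alternative exons, which lowers its value on this scale.

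**Figure D3:**
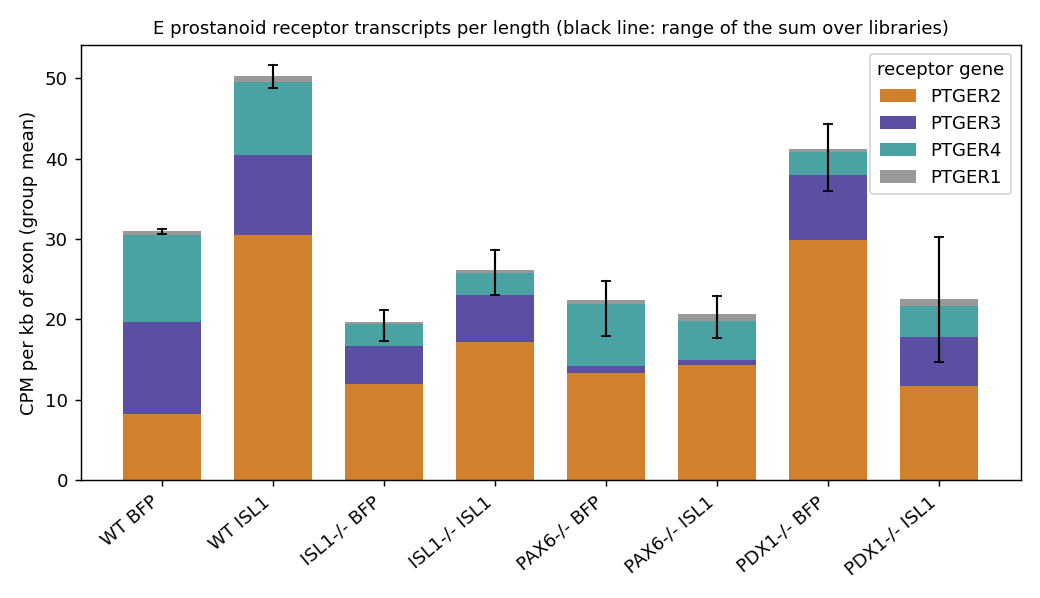
Mean CPM per kilobase of exon of the 4 EP receptor genes, stacked by group, with a black line from the lowest to the highest library for their sum. On this scale PTGER2 is the largest part in 7 groups, an order against PTGER3 that turns in CPM outside PAX6-/-, and PTGER3 is at most 0.802 CPM per kb in the PAX6-/- groups.

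Markers of enterochromaffin cells, the serotonin-producing endocrine cells of the gut that also arise in stem cell islet cultures, moved with PROKR1 across the BFP-labelled groups. The 5 markers TPH1, FEV, LMX1A, SLC18A1 and MME summed to 612 and 748 CPM in WT with BFP, 1786 to 2379 in ISL1-/-, 1051 to 1731 in PAX6-/- and 3252 to 3828 in PDX1-/- with BFP. With ISL1 they summed to 449.9 to 491 CPM in WT, 747 to 968 in ISL1-/-, 469 to 1089 in PAX6-/- and 1062 to 1106 in PDX1-/-. TPH1, the tryptophan hydroxylase of serotonin synthesis, had a mean of 42.9 CPM in WT with BFP and 450.2 in PDX1-/- with BFP. The order of the 4 BFP groups was the same for PROKR1 and for the marker sum. PROKR1 was chosen by its response in PDX1-null cells, and the markers with earlier results of these data known. The matching order is therefore a description and no test of a link. Some ISL1-labelled libraries went against that order. PAX6-/- with ISL1 replicates 1 and 2 had 469 and 510.0 marker CPM, below both BFP-labelled WT libraries, and 2.7 and 1.86 CPM of PROKR1, above both. The libraries with high mitochondrial shares went the other way: PAX6-/- with ISL1 replicate 3 had 1089 marker CPM and 0.587 CPM of PROKR1, and PDX1-/- with ISL1 replicate 4 had 1062 and 0.445. In these last 2 libraries FEV made up most of the sum, at 920.0 and 950.4 CPM. TPH1 had 47.1 and 22.5 CPM, LMX1A 34.0 and 34.4, SLC18A1 77.2 and 26.9 and MME 10.8 and 28.0, all below the BFP-labelled libraries of the same genotype. ADRB1 did not keep this order, since ISL1-/- with BFP had more marker RNA than PAX6-/- with BFP but less ADRB1. PTGER2 did not either, since WT with ISL1 had 449.9 and 491 marker CPM and 79.0 and 71.2 CPM of PTGER2. General endocrine markers also differed, at 47981 to 53822 CPM in PDX1-/- with BFP and 21453 to 26049 in WT with BFP. No marker of either list was at 0 throughout a group, and the part of cell make-up in the receptor levels was not tested.

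**Figure D4:**
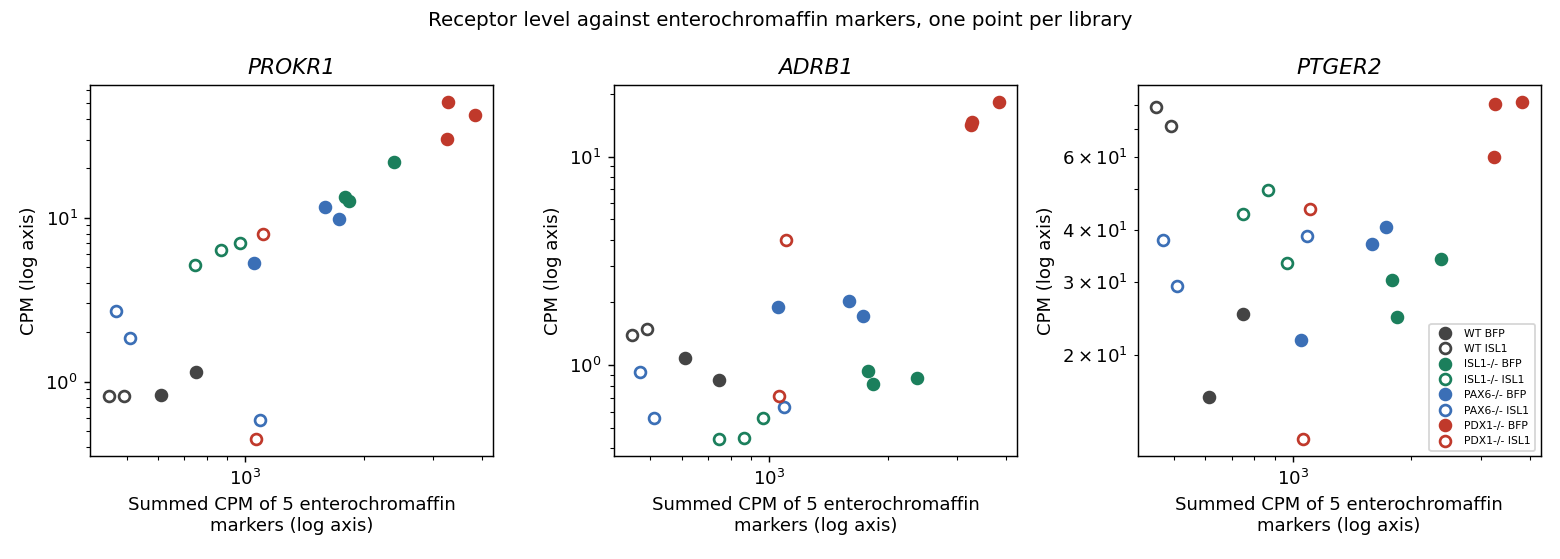
CPM of PROKR1, ADRB1 and PTGER2 against the summed CPM of 5 enterochromaffin markers, 1 point per library, both axes logarithmic. For PROKR1 most libraries lie along a rising band from WT to PDX1-/- with BFP, with 2 ISL1-labelled libraries (0.445 and 0.587 CPM) far below it.

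Across the 21 libraries, the genes whose log2 CPM was most like that of a receptor, out of 25883 others, were ranked by Pearson's r, given as a description because libraries share their genotype groups. For PROKR1 they were ENSG00000286069 (0.965), RASGRP1 (0.965) and IMPDH1 (0.963). For ADRB1 they were GRAMD2B (0.941), ZPLD1 (0.940) and VWA7 (0.935). PTGER3 was closest to HS3ST5 (0.981), CAT (0.940) and IFIH1 (0.932), and PTGER4 to ITGB6 (0.900), SOWAHC (0.888) and ST6GALNAC3 (0.868). PTGER2 had looser neighbours, GALNT1 (0.789), ENSG00000228549 (0.786) and NPBWR1 (0.775). HS3ST5, which encodes a heparan sulfate sulfotransferase, spanned 4.04 to 71.0 CPM, and RASGRP1, an activator of Ras, 5.04 to 169.

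The counts for related genes are read against the shares of all genes that passed with BFP over WT, 9.68% in PDX1-/-, 5.59% in ISL1-/- and 5.51% in PAX6-/-. Of 7 other adrenergic receptor genes that passed the filter, 1 of 7 changed in ISL1-/-, and 0 in PAX6-/- and PDX1-/-, each with BFP over WT (median log2 fold changes 0.47, 0.40 and 0.59, against 0.02, 0.03 and 0.03 over all genes). The gene was ADRA1A, the alpha-1A receptor, at 1.13 CPM ± 0.284 (SD, n = 3) in ISL1-/- and 0.0220 ± 0.0311 (SD, n = 2) in WT (adjusted p 0.00315 in edgeR, lost without WT with BFP replicate 3 at 0.0581). ADRA2A, the alpha-2A receptor that restrains insulin release, had 106 CPM ± 11.9 (SD, n = 2) in BFP-labelled WT cells, 332 ± 49.4 in ISL1-/-, 235 ± 53.4 in PAX6-/- and 260.3 ± 33.8 in PDX1-/- with BFP (SD, n = 3 each), with adjusted p of 0.0702, 0.212 and 0.122. It fell with ISL1 over BFP in PDX1-/-, to 63.7 CPM ± 58.3 (SD, n = 2), a log2 difference of -2.03 (SE 0.52, adjusted p 0.019). That call was lost without PDX1-/- with ISL1 replicate 4 (adjusted p 0.204). ADRA2B and ADRA2C, the other alpha-2 receptors, reached at most 3.37 and 4.3 CPM, with 0 calls between them in these comparisons.

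Of 5 other prostanoid receptor genes that passed the filter, 0 passed the test in ISL1-/-, 1 in PAX6-/- and 1 in PDX1-/- with BFP over WT, the same gene, PTGDR. PTGDR, the DP1 receptor of prostaglandin D2, was named after its values were seen and reached at most 0.750 CPM. It was higher by 3.04 (adjusted p 0.0426 in edgeR) and 3.22 (adjusted p 0.0218) on the log2 scale, and was not refitted without single libraries. PTGDR2, the DP2 receptor of prostaglandin D2, had 50.4 CPM ± 4.38 (SD, n = 2) in BFP-labelled WT cells and fell with ISL1 over BFP in PAX6-/-, from 58.9 ± 14.8 to 22 ± 4.20 (SD, n = 3 each), a log2 difference of -1.42 (SE 0.23, adjusted p 0.0103 in edgeR). That call was lost without replicate 1 of either group (adjusted p up to 0.0955). PTGER1 and PTGFR reached at most 2.47 and 1.59 CPM.

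**Figure D5:**
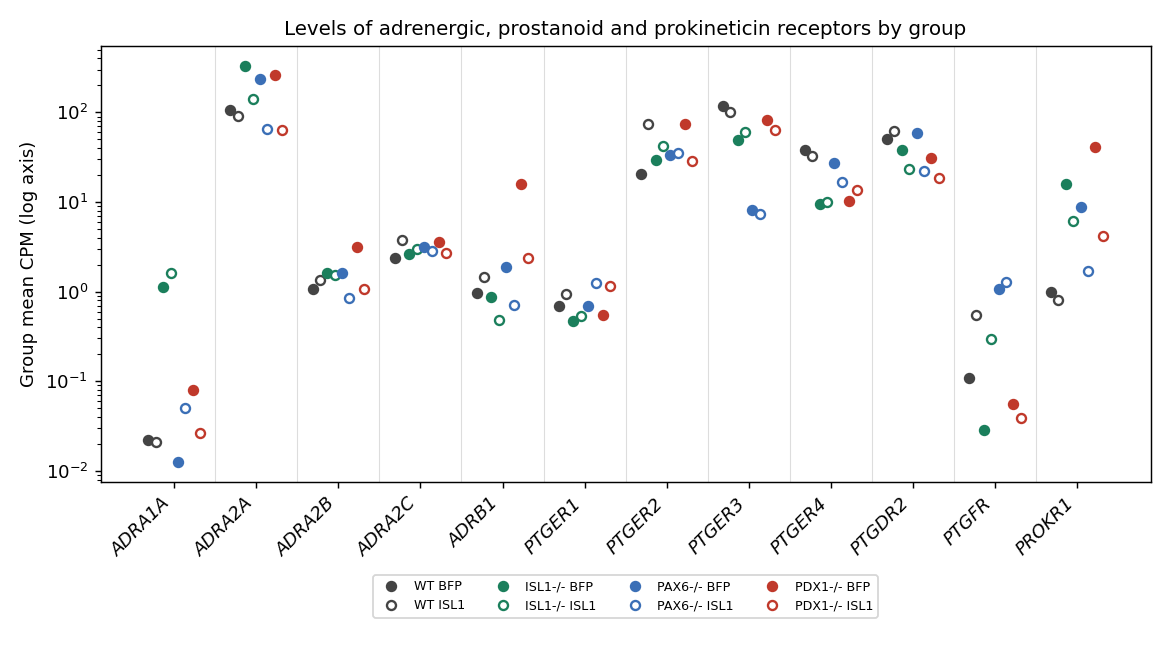
Group mean CPM, on a logarithmic axis, of adrenergic, prostanoid and prokineticin receptor genes, among those with at least 1 CPM in some library (filled, BFP; open, ISL1). ADRB1 (15.7 CPM) and PROKR1 (41.2 CPM) stand highest in PDX1-/- with BFP, and PTGER3 lowest in PAX6-/-.

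Among 14 tested genes of prostaglandin synthesis, transport and breakdown, 1 rose and 1 fell in ISL1-/-, 2 fell in PAX6-/- and 3 fell in PDX1-/- with BFP over WT. HPGD, the enzyme that inactivates prostaglandin E2, fell in all 3 knockouts: from 25.2 CPM ± 3.36 (SD, n = 2) to 6.29 ± 1.52, 8.75 ± 1.19 and 4.85 ± 0.346 (SD, n = 3 each), with adjusted p of 0.005, 0.0284 and 0.0013 in edgeR. The HPGD call in PDX1-/- held without any single library, that in ISL1-/- was lost without WT with BFP replicate 3 (0.0541), and that in PAX6-/- without any of the 5 libraries compared (up to 0.207). PTGR1, a prostaglandin reductase, fell in PAX6-/- (-1.56, adjusted p 0.0318) and PDX1-/- (-1.54, adjusted p 0.0231). SLCO2A1, the prostaglandin transporter, fell in PDX1-/- (-2.58, adjusted p 0.0166), and PTGES2, a prostaglandin E synthase, rose in ISL1-/- (1.02, adjusted p 0.0306). Both PTGR1 calls were lost without any of their 5 libraries (up to 0.207). SLCO2A1 was lost without WT with BFP replicate 3 or PDX1-/- replicate 2 or 3 (up to 0.142), and PTGES2 without either WT library or ISL1-/- replicate 1 or 3, all with BFP (up to 0.231). With ISL1 over BFP in PDX1-/-, 2 of 14 rose, HPGD (1.70, adjusted p 0.011) and PTGR1 (2.03, adjusted p 0.00531), with an SD of 13.8 around 15.8 CPM for HPGD and of 286 around 294 CPM for PTGR1 in the 2 ISL1-labelled libraries. Both were lost without PDX1-/- with ISL1 replicate 4 (adjusted p 0.719 for HPGD and 0.583 for PTGR1). PTGS1 and PTGS2, the cyclooxygenases, reached at most 2.90 and 3.74 CPM.

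For the adrenergic ligands, 10 of 10 genes of catecholamine synthesis, storage and breakdown were tested. In ISL1-/- 2 rose and 2 fell, in PAX6-/- 1 rose and 2 fell, and in PDX1-/- 2 rose and 3 fell, each with BFP over WT. SLC18A1, the vesicular monoamine transporter that is also an enterochromaffin marker, rose in all 3: from 50.9 CPM ± 18.7 (SD, n = 2) to 185 ± 39.2, 188 ± 62.7 and 409 ± 10.0 (SD, n = 3 each), with adjusted p of 0.0335, 0.0322 and 0.00179 in edgeR. The call in PDX1-/- held without any single library (at most 0.049), that in ISL1-/- was lost without any of its 5 (up to 0.316), and that in PAX6-/- without either WT library or PAX6-/- replicate 1 or 3, all with BFP (up to 0.32). DDC, which makes dopamine and serotonin, rose in ISL1-/- (1.13, adjusted p 0.00444) and PDX1-/- (1.42, adjusted p 0.00079), the first of these lost without either WT library with BFP (up to 0.0728). SLC6A2, the noradrenaline transporter, fell in all 3, from 3.76 CPM ± 0.966 (SD, n = 2) to 0.0177 ± 0.0307, 0.467 ± 0.210 and 0.439 ± 0.261 (SD, n = 3 each), with adjusted p of 4.82e-05, 0.00926 and 0.00444. The calls of SLC6A2 in ISL1-/- and PDX1-/- held without any single library, and that in PAX6-/- was lost without WT with BFP replicate 3 or PAX6-/- with BFP replicate 1 (up to 0.0926). TH, the first enzyme of catecholamine synthesis, fell in PDX1-/- (-2.94, adjusted p 0.00619, lost without WT with BFP replicate 1 at 0.122). The remaining calls were of monoamine oxidases, named after their values were seen and not refitted without single libraries: MAOA fell in ISL1-/- (-1.90, adjusted p 0.000499) and PAX6-/- (-0.96, adjusted p 0.0442), and MAOB in PDX1-/- (-1.63, adjusted p 0.0135).

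Downstream of the receptors, the counts stand beside the same shares of all genes. Of 12 genes of G protein alpha subunits, GNAS, the gene of the Gs subunit through which ADRB1, EP2 and EP4 act, fell in ISL1-/- and PAX6-/- with BFP. Its count went from 3238 CPM ± 1031 (SD, n = 2) to 980.1 ± 80.0 and 891 ± 31.8 (SD, n = 3 each), with adjusted p of 0.0174 and 0.0126 in edgeR. Counts are summed per gene, so which GNAS transcripts fell, and whether that of the Gs subunit did, was not tested. GNAO1, a Go subunit, rose in PAX6-/- (1.15, adjusted p 0.0468), and 0 of the 12 passed in PDX1-/- with BFP. GNAS was lost without WT with BFP replicate 3, without any ISL1-/- library or without PAX6-/- replicate 1 or 3 (up to 0.211), and GNAO1 in 13 of the 21 fits that left out a library (up to 0.393). Of 9 adenylyl cyclases, 2 rose in PDX1-/- with BFP over WT, ADCY4 (2.19, adjusted p 0.0237) and ADCY1 (0.80, adjusted p 0.0441), and 0 passed in the other knockouts. ADCY4 was lost without either WT library or PDX1-/- replicate 1 or 3, all with BFP (up to 0.204), and ADCY1 in 15 of the 21 fits (up to 0.257).

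Of 14 cAMP effectors, 1 rose in ISL1-/-, 3 in PAX6-/- and 2 in PDX1-/- with BFP over WT. PRKAR1B, a regulatory subunit of protein kinase A, rose in all 3 (1.01, 0.95 and 0.97, adjusted p 0.0242, 0.0337 and 0.0209 in edgeR), calls named after their values were seen and not refitted without single libraries. RAPGEF4, the cAMP sensor Epac2 (1.3, adjusted p 0.0499), and PRKACA, a catalytic subunit of protein kinase A (1.02, adjusted p 0.0344), rose in PAX6-/-. PKIA, an inhibitor of protein kinase A, rose in PDX1-/- (1.67, adjusted p 0.00735). Of 16 phosphodiesterases that break down cAMP, PDE8B fell in ISL1-/- (-1.73, adjusted p 0.00417) and PDX1-/- (-1.39, adjusted p 0.0116) and PDE1C in PAX6-/- (-1.58, adjusted p 0.00709) and PDX1-/- (-2.25, adjusted p 0.000422). Of 12 early genes that cAMP induces, 1 fell in PAX6-/-, NR4A2 (-1.54, adjusted p 0.0329), and 0 passed in ISL1-/- or PDX1-/-. Of 10 genes of receptor desensitization, RGS16 fell in PAX6-/- (-1.70, adjusted p 0.0431) and PDX1-/- (-1.95, adjusted p 0.0146). Of these calls, PDE1C in PDX1-/- held without any single library (at most 0.00637). RAPGEF4 was lost in 16 of the 21 fits that left out a library (up to 0.302), RGS16 in PAX6-/- in 15 (up to 0.22) and PRKACA in 7 (up to 0.244), NR4A2 without any of its 5 libraries (up to 0.191), and RGS16 in PDX1-/- without either WT library or PDX1-/- replicate 3 (up to 0.0986). PKIA was lost without WT replicate 1 (0.145), PDE8B in ISL1-/- without WT replicate 3 (0.0842), PDE8B in PDX1-/- without WT replicate 3 or PDX1-/- replicate 2 (up to 0.154) and PDE1C in PAX6-/- without either WT library (up to 0.0747), all with BFP.

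For ISL1 over BFP in PDX1-/-, 12.5% of all genes passed in edgeR, and the pathway genes that follow were among them. ADCY4 (-1.98, adjusted p 0.0302), PKIA (-1.38, adjusted p 0.0208), PRKAR1B (-0.88, adjusted p 0.0301), GNAO1 (-1.39, adjusted p 0.013) and SLC18A1 (-2.13, adjusted p 0.0124) fell. PDE11A (2.49, adjusted p 0.014) and PDE8B (1.22, adjusted p 0.0237), phosphodiesterases, and RGS16 (2.64, adjusted p 0.00291) and RGS2 (1.93, adjusted p 0.00594), regulators of G protein signalling, rose. All 9 calls, and those of ADRA2A, HPGD and PTGR1 given above, were lost under limma voom with sample quality weights and in the edgeR fit on only these 5 libraries. That loss was not particular to them, since 22 of 25884 and 0 of 22180 genes passed in those fits, against 3240 in the model over all libraries. Without PDX1-/- with ISL1 replicate 4, the library with the high mitochondrial share, each was lost except PDE11A, which was lost without replicate 2 (adjusted p up to 0.414 over these 9). Without a BFP-labelled PDX1-/- library, ADCY4, PKIA, PRKAR1B, PDE11A and PDE8B were lost too.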

How the data were processed

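The 21 libraries are biological replicates per the series' design text, in 8 groups given by titles and descriptions, whose numbers differ for 3 libraries. The authors deposited raw counts per gene. STAR 2.7.11b, featureCounts 2.1.1 and GRCh38 are named in the submitters' processing notes; the annotation release and strand setting are not given in the sources used here. All 62699 gene IDs used matched a symbol, and 1 entry broken over 3 lines, ANK2, was left out.

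Counts were scaled by TMM and tested with the quasi-likelihood test of edgeR 4.0.16 in R 4.3.3, in 1 model over all 21 libraries and 8 groups (16 comparisons). filterByExpr (minimum 10 counts, total 15) kept 25884 genes, with a common biological coefficient of variation of 0.334. Benjamini-Hochberg adjustment ran over all genes kept within each comparison, and 0.05 was the threshold. Fold changes used a prior count of 0.125, and log2 CPM a prior count of 2. Total counts of 36.8 to 60.2 M per library set the counting precision, and a 0 allows up to 3 counts.

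Alternatives were DESeq2 1.42.0, its size factors in edgeR, no filter, only the groups compared, limma 3.58.1 voom with sample quality weights, replicate blocks and leaving out each library. For named pathway genes they were added after the data were seen. Deviations of same-numbered libraries had an r across genes of 0.155, 0.391 and 0.333 in the PAX6-/- vector comparison. In that of ISL1-/- they had 0.183, 0.099 and 0.293, and in the other comparisons -0.284 to 0.210. Libraries of unlike number were not compared, so a pairing by number is not shown. The code was checked on simulated data.

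The receptors, gene lists and markers were chosen with earlier results of these data known. Pathway genes were named if they passed the threshold without overlap and averaged 1 CPM or more in whichever group was higher, up to 3 per list and direction, together with other adrenergic and prostanoid receptors that reached 1 CPM. The 3 most correlated genes of each receptor were named too. The values of 1 other receptor gene are not reported here.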

Additional observations from a re-analysis of the deposited data

Results flagged for a closer look

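The vector values of ADRB1 and PTGER2 had opposite signs in WT and in PDX1-/-. Every ISL1-labelled WT library lay above both BFP-labelled ones, and every ISL1-labelled PDX1-/- library lay below all 3 BFP-labelled ones. With so few libraries per group this separation is a description, and how many of all genes lack overlap was not counted. In WT neither value passed the threshold: 0.58 (SE 0.49) for ADRB1 and 1.88 (SE 0.44, adjusted p 0.283 in edgeR) for PTGER2. The interval of the ADRB1 value in WT, -0.38 to 1.54, holds both signs, so its sign there was not settled. The log2 difference of the effects, PDX1-/- minus WT, was -3.30 for ADRB1 and -3.24 for PTGER2. These differences were not tested, because both genes were listed for their response in PDX1-null cells. They ranged from -5.05 to -2.55 for ADRB1 and from -4.45 to -2.59 for PTGER2 when a library was left out.

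The vector values of PTGER4 had opposite signs in PAX6-/- (-0.71, adjusted p 0.466 in edgeR) and PDX1-/- (0.43, adjusted p 0.432), neither past the threshold. All 3 ISL1-labelled PAX6-/- libraries lay below the BFP-labelled ones, and both ISL1-labelled PDX1-/- libraries lay above theirs, at 13.4 and 14.0 CPM against a highest value of 13.1. This separation too is a description, since the share of all genes without overlap was not counted. The log2 difference of the effects, PDX1-/- minus PAX6-/-, was 1.14 and was not tested.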

How the results depend on the processing

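For knockouts over WT with BFP the count of 6 receptor calls ranged from 1 to 7 when a library was left out, with 1 without WT replicate 1 and 3 without WT replicate 3, both with BFP. Among ISL1-labelled libraries the 2 calls became 4 under DESeq2, 4 without a filter on low counts, 5 when only the compared groups were fitted and 8 under limma voom with sample quality weights, and ranged from 1 to 7 when a library was left out. The calls over all genes there went from 962, 922 and 164 in ISL1-/-, PAX6-/- and PDX1-/- to 5649, 43 and 0 when only the compared groups were fitted and to 6338, 4230 and 0 under limma voom. The 4 calls between knockouts ranged from 2 to 5. The 0 calls for ISL1 over BFP became 3 under DESeq2, 1 without a filter, 2 when only the compared groups were fitted and 6 under limma voom, and ranged from 0 to 3. The 0 calls for differences of vector effects became 2 under limma voom and stayed at 0 in each fit that left out a library. DESeq2 size factors in edgeR gave 6, 2, 4, 0 and 0 calls in these 5 families.

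With a replicate block by description number, the ISL1-labelled comparisons had 9 calls and ISL1 over BFP had 4, against 3 and 0 with the block by title number. The block by description number gave 7 calls for knockouts over WT with BFP, 5 between knockouts and 0 for differences of vector effects, and the block by title number 6, 4 and 0. The numbers are not shown to pair the libraries in any comparison.

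Without PDX1-/- with ISL1 replicate 2, the log2 fold change of PDX1-/- over WT, both with ISL1, turned from 0.72 to -1.03 for ADRB1 and from 2.37 to -0.88 for PROKR1, and without replicate 4 they were 1.47 and 3.28. The cause was not tested. Of 46 calls of named pathway genes, 40 were lost without some single library and 20 under another alternative; these alternatives were chosen for them after seeing the data. Counting depth limits PROKR2, at 0 to 10 counts.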
